A study of Mus musculus with 20 samples.

Results

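The subject is a set of 36 genes of fatty acid oxidation and ketogenesis in mouse liver, chosen by name from mitochondrial and peroxisomal beta-oxidation, ketone body metabolism and the targets of the nuclear receptor PPAR-alpha. Each of the 36 had 1 row among the 36106 genes of the count table, and all 36 passed the filter on low counts that left 16164 genes for testing.

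Liver RNA was sequenced from male mice in 4 groups. Sham_Nx mice (n = 4) had a sham operation and were kept in normoxia, and Sham_IH mice (n = 5) had a sham operation and were kept in intermittent hypoxia, a repeated short drop of oxygen used as a model of sleep apnoea. ORX_Nx mice (n = 5) and ORX_IH mice (n = 5) had an orchiectomy, the surgical removal of the testes and thereby of the main source of testosterone, followed by the same 2 exposures. Exposure lasted 2 weeks, and Sham_Nx mouse 1 was not analysed here. Strain, age, feeding state and time of death are not given in the sources used here. Each library is 1 mouse, and the number after its group name is the mouse number in the labels. The labels also give a separate library number. For mice 1 to 4 these library numbers run in consecutive blocks, 1 block per group, and mouse 5 of each group comes after the blocks. Within the blocks, library order cannot be told apart from group, and its part in the differences between groups was not tested.

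When the liver burns fat, a fatty acid is first bound in the cytosol and activated to its coenzyme A (CoA) ester. It then crosses the mitochondrial membranes as a carnitine ester and is cut in repeated rounds of dehydrogenation, hydration, a further dehydrogenation and thiolysis. Very long and branched chains are first shortened in peroxisomes, and in fasting the acetyl-CoA made in mitochondria is turned into ketone bodies for other organs. PPAR-alpha is activated by fatty acids and drives most of these genes, which makes the pathway one of the best known fasting responses of the liver.

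Values below are CPM, counts relative to the library total, after scaling by the trimmed mean of M-values (TMM), 1 value per liver. A gene passed the test, or was called, where its adjusted p from edgeR's quasi-likelihood F-test was under 0.05 over all 16164 genes. Fold changes are on the log2 scale, and ± after a fold change is its standard error. Differences in whole liver can come from fewer cells of a type or from less RNA per cell, and these cannot be told apart here.

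Libraries held 29.3 to 69.6 M counts each. All 7 measured hepatocyte markers were present in every group, with a summed level of 77663 to 88779 CPM in Sham_Nx, 94634 to 104813 in Sham_IH, 84273 to 116009 in ORX_Nx and 104509 to 115615 in ORX_IH. Traces of other tissue were seen in single libraries. The 14 skeletal muscle markers summed to 1162 CPM in ORX_IH 1, 649 in ORX_IH 2, 179 in Sham_Nx 2 and 47.4 in Sham_Nx 3, against 4.90 to 15.2 in the other libraries. The 11 pancreatic acinar markers summed to 999.7 CPM in Sham_IH 5, 404 in Sham_Nx 5 and 199 in ORX_IH 1. Results are also given without these 4 muscle-marker livers, which leaves 2 Sham_Nx and 3 ORX_IH livers, or without these 3 pancreas-marker livers, where that changed a call. The 9 adipocyte markers, of which Ucp1 was at 0 in both sham groups, summed to at most 18.2 CPM except in ORX_IH 1, at 58.3. The 11 Kupffer cell and macrophage markers summed to 186 to 312 CPM in Sham_Nx, 165 to 222 in Sham_IH, 278 to 1136 in ORX_Nx and 262 to 382 in ORX_IH.

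**Figure D1:**
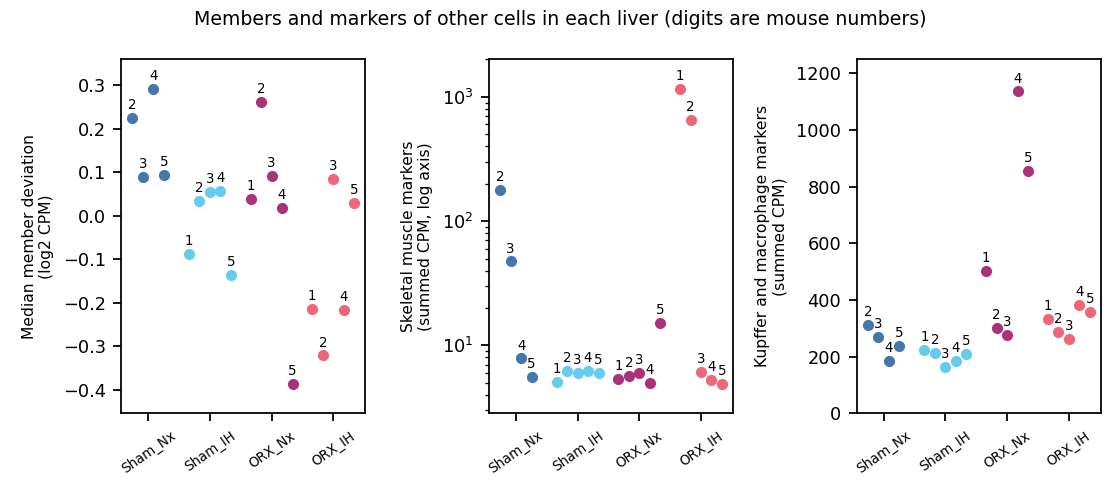
Each point is 1 liver, placed by group, with its mouse number above it. The left panel gives the median over the 36 genes of a liver's log2 CPM minus the mean of all livers, the middle panel the summed CPM of 14 skeletal muscle markers on a log axis, and the right panel the summed CPM of 11 Kupffer cell and macrophage markers. ORX_Nx 5 had the lowest median, -0.39, and ORX_IH 1 and 2 had the most muscle marker RNA.

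ORX_Nx 5 stood apart from its group. It had the lowest level of all 19 livers for 20 of the 36 genes and a median deviation of -0.39 on the log2 scale, where ORX_Nx 1 to 4 lay between 0.02 and 0.26. It also had 5337 CPM of pericentral hepatocyte markers, the lowest of the 19 livers. Its 10345 CPM of periportal hepatocyte markers and 405 CPM of stellate cell and fibroblast markers were the highest. Kupffer cell and macrophage markers summed to 856 CPM in ORX_Nx 5 and to 1136 CPM in ORX_Nx 4. ORX_IH 2 was below the mean of all livers for 36 of the 36 genes, ORX_IH 1 for 34 and ORX_Nx 5 for 33. The median deviation was -0.32 in ORX_IH 2 and -0.22 in ORX_IH 1, the livers with the most muscle marker RNA, and -0.22 in ORX_IH 4. Whether marker content had a part in these levels was not tested.

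The promoters of Fabp1 and Cpt1a are printed because their genes sit at the entry of the pathway and hold letters of the element to which PPAR-alpha binds with its partner RXR, a direct repeat of the half-site AGGTCA spaced by 1 base. Fabp1 codes for the liver fatty acid binding protein and Cpt1a for the carnitine acyltransferase that starts mitochondrial import. The sequences are from RefSeq on build GRCm38.p6, an older build than the GRCm39 of the counts, and capitals mark matches on either strand to AGGTCA or to a pair of copies of it spaced by 1 base, with any base allowed at the fourth position of each copy.
Fabp1, chr6:71199779-71199878, plus strand, 100 to 1 bases before the start: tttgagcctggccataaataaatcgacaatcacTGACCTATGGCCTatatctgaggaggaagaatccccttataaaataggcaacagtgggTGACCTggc
Cpt1a, chr19:3323171-3323270, plus strand, 130 to 31 bases before the start: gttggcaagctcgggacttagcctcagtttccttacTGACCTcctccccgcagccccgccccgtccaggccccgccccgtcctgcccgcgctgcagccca
The spaced repeat in the Fabp1 promoter began 67 bases before the start of transcription, on the minus strand. Its first 6 letters are also a match to the half-site, and a second half-site began 9 bases before the start. In Cpt1a a half-site began 94 bases before the start.

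Promoters of 30 of the 36 genes were in the RefSeq table, each as 250 bases before and 50 bases after a start. A pair of exact copies of AGGTCA spaced by 1 base of any kind was in none of the 30, and in 0.0396% of all 32851 promoters. The pair with any base at the fourth position of each copy, which takes in the exact pair, was in 1, Fabp1, and in 0.381% of all promoters. The half-site AGGTCA was in 6 of the 30, namely Creb3l3, Fabp1, Slc27a2, Cpt1a, Acadvl and Acadm, and in 16.3% of all promoters. These matches describe letters in a short window and are not measured binding sites.

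Levels between genes are compared as TPM, a transcript level corrected for gene length, over the 4 Sham_Nx livers. Fabp1 was by far the most abundant at 10168 ± 2012 TPM (SD). Acaa1b, a peroxisomal thiolase, followed at 1525 ± 158 TPM, Ehhadh, the peroxisomal bifunctional enzyme, at 1169.5 ± 398 and Slc27a2, a very long chain acyl-CoA synthetase and transporter, at 1129.9 ± 114.6. The SD of Ehhadh reached both of its neighbours in this order. The lowest levels were those of Fgf21, a hormone, at 11.2 ± 5.44 TPM, Angptl4, a secreted inhibitor of lipoprotein lipase, at 34.0 ± 8.98 and Ppara itself at 70.8 ± 15.2. Livers of 1 group differed most in Fgf21, with a within-group SD of 0.81 on the log2 scale, followed by Vnn1 (0.65), Ehhadh (0.56) and Angptl4 (0.56), and least in Creb3l3 (0.11). The median within-group SD was 0.18 over the 36 genes and 0.22 over all 16164 genes.

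**Figure D2:**
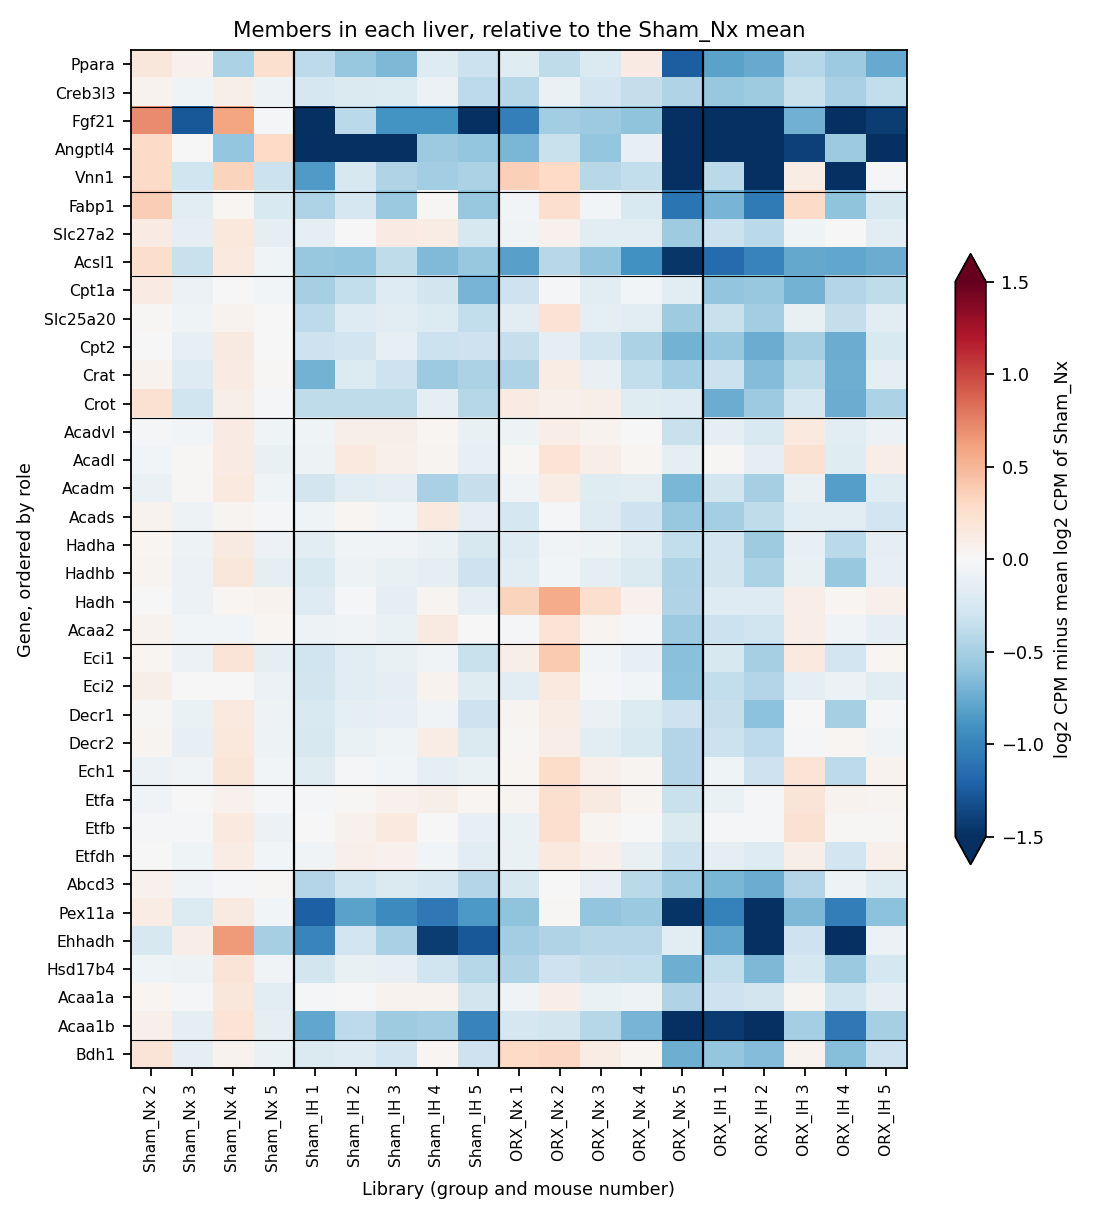
Rows are the 36 genes ordered by role and columns the 19 livers by group, and the colour is log2 CPM minus the mean log2 CPM of the Sham_Nx livers, cut at 1.5 in either direction. Blue is lower than Sham_Nx, and the rows of Fgf21, Angptl4, Vnn1, Pex11a, Ehhadh and Acaa1b hold cells of the darkest blue, while those of the electron transfer genes stay pale.

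Orchiectomy in normoxia, ORX_Nx against Sham_Nx, was followed by a fall of 4 of the 36 genes and a rise of none. Acsl1, Hsd17b4, Creb3l3 and Cpt2 passed, which belong to activation, peroxisomal oxidation, transcription and carnitine import in turn. Among all genes 14.3% were called in either direction and 6.46% were called lower, so 4 of 36 is near the background. Below 0 lay 31 of the 36 fold changes, against 48.1% of all genes, with a median of -0.17 against 0.01, and 8 of the 36 had an unadjusted p under 0.05 (30.3% of all genes). The groups did not overlap for 5 genes, all lower (Creb3l3, Acsl1, Cpt2, Hsd17b4 and Acaa1b), where 6.65% of all genes were lower without overlap. In the same contrast 11 of 11 Kupffer cell and macrophage markers and 4 of 9 stellate cell and fibroblast markers rose, 3 of 14 skeletal muscle markers fell, and 1 of 7 hepatocyte markers rose. Their part in the falls was not tested. Acsl1 kept its call under all 31 alternatives. The count was 2 without Sham_Nx 4, a fit for which the share of all genes called is not given here. It was also 2 without the 4 muscle-marker livers, where fewer of all genes were called too, as given under the dependence on processing.

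Under intermittent hypoxia, ORX_IH against Sham_IH, none of the 36 passed edgeR's test, where 2.88% of all genes did and 1.57% were called lower. Unadjusted, 4 of the 36 had a p under 0.05 (17.2% of all genes), DESeq2 called 1 (Acads, with 5.36% of all genes) and both limma fits called 0. Fold changes below 0 numbered 28 of 36 (51% of all genes), with a median of -0.10, and Acsl1 and Acads were lower without overlap (3.07% of all genes). Without ORX_Nx 5, which is in neither group but shares the fit, Acads passed here (adjusted p = 0.0395), as did 4.38% of all genes. In this contrast 9 of 14 skeletal muscle markers rose and 0 of 11 Kupffer cell and macrophage markers passed, of which 6 had an unadjusted p under 0.05 and 10 lay above 0.

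Averaged over both exposures, orchiectomy lowered 5 of the 36 genes and raised none: Acsl1, Creb3l3, Cpt2, Acads and Hsd17b4. The background was 22% of all genes in either direction and 10.1% lower, so this count too is near it. Below 0 lay 30 of 36 fold changes (49.2% of all genes), with a median of -0.13 against 0.00 over all genes, and 11 of the 36 had an unadjusted p under 0.05 (35.5% of all genes). Acsl1, Creb3l3 and Cpt2 kept the call under all 30 alternatives that could be run. Acads lost it without the 4 muscle-marker livers (adjusted p = 0.0737), and Hsd17b4 with no scaling factors (adjusted p = 0.0572). In this contrast 10 of 11 Kupffer cell and macrophage markers and 4 of 9 stellate cell and fibroblast markers rose, and 8 of 11 pancreatic acinar markers fell (11 below 0, median -5.03). Their part in the 5 falls was not tested.

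The number of the 36 genes below 0 after orchiectomy depended on the scaling, as did the median of all genes. With library totals alone in place of TMM, the median of all genes moved to 0.14 in normoxia, 0.13 under intermittent hypoxia and 0.13 averaged. The number of the 36 genes below 0 then became 23, 15 and 19. The share of all genes below 0 under this scaling is not given here, so these counts have no background. The share of calls that were higher became 86.4%, 85.5% and 89.4% of all genes called, where with TMM it was 54.9%, 45.4% and 53.8%. Under this scaling, averaged over exposures, Acsl1 was at -0.45, Creb3l3 at -0.15, Cpt2 at -0.20 and Acads at -0.15 and passed, while Hadh, a mitochondrial dehydrogenase, passed at 0.24 and Etfa, an electron carrier subunit, at 0.14.

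Intermittent hypoxia after a sham operation, Sham_IH against Sham_Nx, gave no call among the 36, while 0.303% of all genes were called, 0.204% lower. Yet 15 of the 36 had an unadjusted p under 0.05 (13.1% of all genes), DESeq2 called 4, namely Acsl1, Cpt1a, Crat and Pex11a (2.56% of all genes), and both limma fits called 0. Below 0 lay 32 of 36 (48.9% of all genes), with a median of -0.21 against 0.00. The groups did not overlap for 11 of the 36 genes, all lower: Creb3l3, Acsl1, Cpt1a, Slc25a20, Cpt2, Crat, Acadm, Abcd3, Pex11a, Hsd17b4 and Acaa1b. Among all genes 4.21% were lower without overlap. Fitted on these 2 groups alone, 8 passed: Angptl4, Acsl1, Slc25a20, Cpt2, Crat, Abcd3, Pex11a and Acaa1b, with adjusted p between 0.00178 for Pex11a and 0.0494 for Angptl4, and 3.19% of all genes in that fit passed. In the shared fit, 3 passed without ORX_Nx 5 (Pex11a, adjusted p = 0.00944; Acsl1, 0.0341; Cpt1a, 0.0476; 1.23% of all genes), and 1 without ORX_Nx 2, ORX_Nx 4, ORX_IH 2 or ORX_IH 3. Muscle markers lay below 0 for 14 of 14 with a median of -5.54 and Kupffer cell and macrophage markers for 11 of 11 with a median of -0.34, and none passed.

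After orchiectomy, ORX_IH against ORX_Nx, intermittent hypoxia again gave no call, while 0.0742% of all genes were called, 0.0557% lower. Unadjusted, 4 of the 36 had a p under 0.05 (17.1% of all genes), DESeq2 called 2 (Cpt1a and Crot, with 4.4% of all genes) and both limma fits called 0. Below 0 lay 33 of 36 (51.8% of all genes), with a median of -0.15 against -0.01. Without the 4 muscle-marker livers 22 of 36 lay below 0, a fit whose share of all genes below 0 is not given here. Cpt1a and Crot were lower without overlap (1.12% of all genes). Without ORX_Nx 5, Crot (adjusted p = 0.037) and Bdh1 (adjusted p = 0.0413) passed with 0.79% of all genes, and 1 gene passed without ORX_Nx 2 or ORX_Nx 3. Muscle markers lay above 0 for 14 of 14 with a median of 6.80 and pancreatic markers for 11 of 11 with a median of 7.19. Kupffer cell and macrophage markers lay below 0 for 11 of 11, with a median of -0.84 and 10 at an unadjusted p under 0.05, and no marker of these 3 lists passed. The part of these markers in both contrasts of intermittent hypoxia was not tested.

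Averaged over both operations, intermittent hypoxia lowered 4 of the 36 genes and raised none: Cpt1a, Crot, Pex11a and Angptl4. The background was 4.53% of all genes in either direction and 2.57% lower, both smaller shares than 4 of 36. Below 0 lay 34 of 36 fold changes (49.8% of all genes), with a median of -0.18 against 0.00, and 17 of the 36 had an unadjusted p under 0.05 (21.6% of all genes). All 4 calls were lost without the 4 muscle-marker livers, where the adjusted p was 0.118 for Cpt1a, 0.1 for Crot, 0.168 for Pex11a and 0.292 for Angptl4 and 8 genes of all tested were called. Over the 30 alternatives the fold changes ran from -0.42 to -0.36 for Cpt1a, -0.49 to -0.40 for Crot, -0.83 to -0.58 for Pex11a and -1.12 to -0.76 for Angptl4. Without ORX_Nx 5 the count rose from 4 to 14 genes, adding Ppara, Creb3l3, Fgf21, Acsl1, Slc25a20, Cpt2, Crat, Hadh, Acaa1b and Bdh1, while the share of all genes called rose from 4.53% to 6.1%. In this contrast 1 of 11 Kupffer cell and macrophage markers fell (11 below 0, median -0.60). None of the 14 muscle markers (13 above 0, median 0.70) or the 11 pancreatic markers (11 above 0, median 4.06) passed, and the part of all these was not tested.

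The test of whether the 2 treatments changed each other's effect, the interaction, called none of the 36 and 0% of all genes with edgeR. DESeq2 called 63 genes (0.39%) and none of the 36, and both limma fits called none of the 36. Unadjusted, 1025 genes (6.34%) and 1 of the 36 had a p under 0.05, Acsl1 at 0.48 ± 0.23 with a p of 0.0455 (adjusted p = 0.778). Below 0 lay 12 of the 36 (53.4% of all genes), with a median of 0.07 against -0.02. The 4 comparisons between single groups share libraries with each other, so their counts are not independent.

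**Figure D3:**
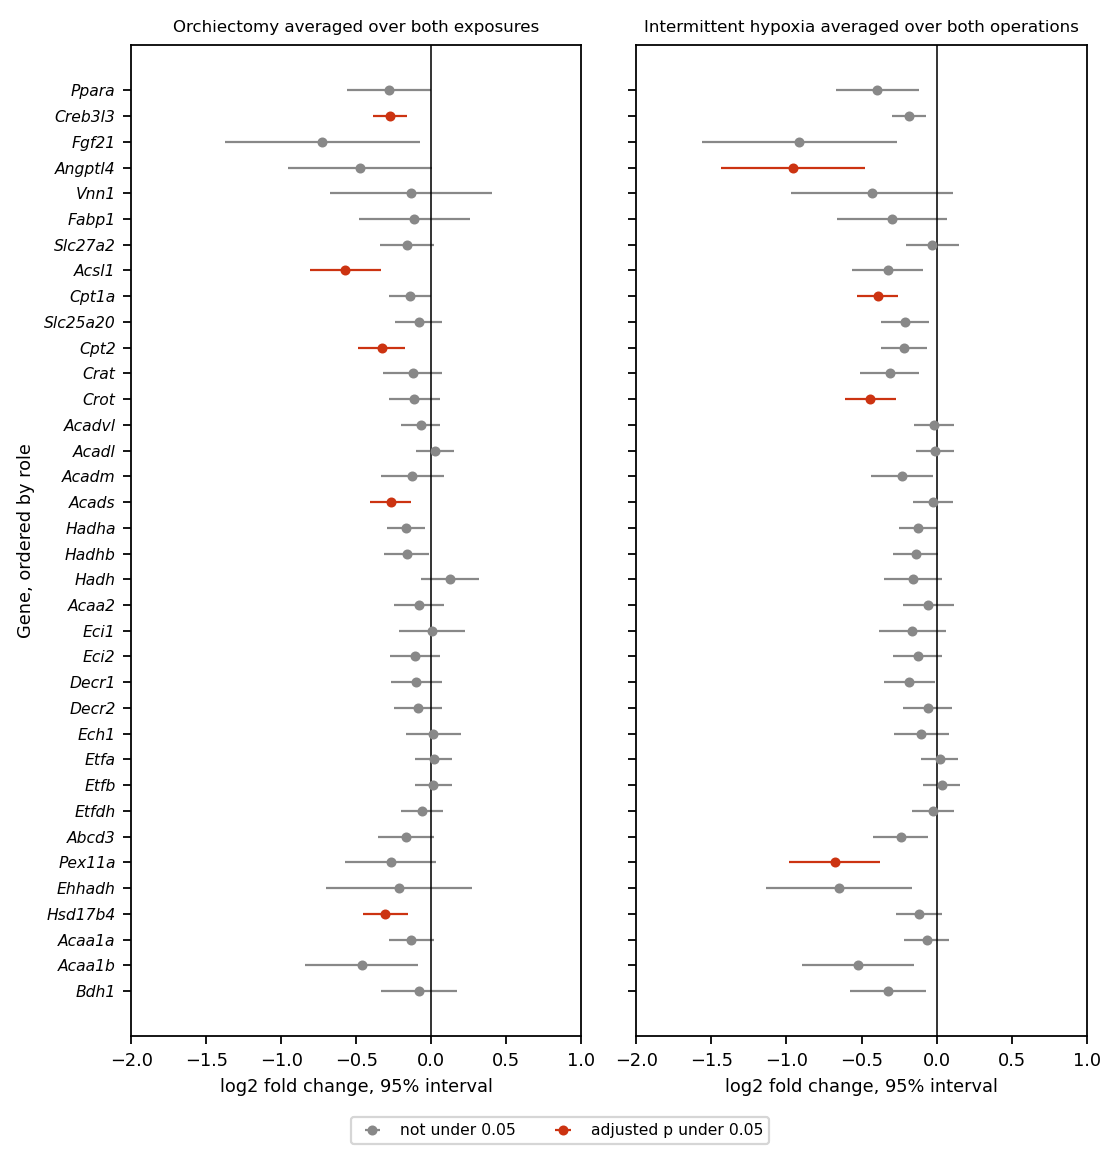
Points are the log2 fold changes of the 36 genes, ordered by role from top to bottom, with 95% intervals, for orchiectomy averaged over both exposures on the left and intermittent hypoxia averaged over both operations on the right. Red marks an adjusted p under 0.05, reached by 5 genes on the left and 4 on the right, all below 0.

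Of the regulators, Creb3l3, a liver transcription factor of the endoplasmic reticulum that works with PPAR-alpha on fasting genes (ENSMUSG00000035041), fell after orchiectomy. Its level in the livers was 356, 330.5, 365 and 327 CPM in Sham_Nx and 288, 296, 298, 323 and 263 in Sham_IH. After orchiectomy it was 256, 322, 282, 269 and 251 in ORX_Nx and 233, 237, 273, 245 and 266 in ORX_IH. Every liver of the other 3 groups lay below the lowest Sham_Nx liver. The change was -0.32 ± 0.08 (adjusted p = 0.0129) in normoxia, -0.23 ± 0.07 (adjusted p = 0.11) under intermittent hypoxia and -0.27 ± 0.05 (adjusted p = 0.00195) averaged. The call in normoxia was lost with no scaling factors (adjusted p = 0.0638), on the 2 groups alone (adjusted p = 0.0506) and without the 4 muscle-marker livers (adjusted p = 0.0923).

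Ppara, the receptor itself (ENSMUSG00000022383), did not pass in any contrast. Sham_Nx livers had 149.8, 139.3, 95.6 and 157 CPM and Sham_IH livers 101, 89.7, 83.1, 116 and 106.4. ORX_Nx livers had 118, 102, 114.4, 145 and 56.5 and ORX_IH livers 76.4, 78.6, 98.6, 91.2 and 78.9. The groups overlapped in each comparison, with Sham_Nx 4 the lowest of its group and ORX_Nx 5 the lowest of all. Its fold change for intermittent hypoxia averaged over operations was -0.39 ± 0.13 (adjusted p = 0.0917), with a 95% interval from -0.67 to -0.12, and without ORX_Nx 5 it was -0.48 (adjusted p = 0.00827).

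Angptl4 (ENSMUSG00000002289), a fasting-induced inhibitor of lipoprotein lipase, fell in intermittent hypoxia. Sham_Nx livers had 60.7, 49.2, 33.1 and 61.1 CPM against 16.1, 16.5, 17.4, 33.9 and 33.2 in Sham_IH. ORX_Nx livers had 30.8, 39.4, 33.3, 45.4 and 15.0 against 13.5, 12.2, 18.8, 34.0 and 15.9 in ORX_IH. The groups overlapped in both pairs, through Sham_Nx 4, the lowest of its group, and through ORX_Nx 5, the lowest, and ORX_IH 4, the highest of theirs. Averaged over operations the change was -0.96 ± 0.23 (adjusted p = 0.027), the lowest fold change of the 36 genes. The call was lost without the 3 pancreas-marker livers (adjusted p = 0.0839) and without 1 of Sham_Nx 2 (0.0566), Sham_Nx 5 (0.063), Sham_IH 1 (0.0528), Sham_IH 2 (0.0506), Sham_IH 3 (0.0526) or ORX_IH 2 (0.0513).

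Fgf21 (ENSMUSG00000030827), a hormone that the liver releases in fasting, was low and varied widely. It was 9.94, 2.52, 9.16 and 5.99 CPM in Sham_Nx, 1.62, 4.62, 3.27, 3.27 and 1.47 in Sham_IH, 3.00, 4.25, 4.17, 4.01 and 0.754 in ORX_Nx and 1.64, 1.5, 3.69, 1.9 and 2.27 in ORX_IH. In Sham_Nx, 3 of the 4 livers lay above every other liver, and Sham_Nx 3 lay among the rest. Fold changes were -1.08 ± 0.45 (adjusted p = 0.107) for orchiectomy in normoxia and -1.27 ± 0.45 (adjusted p = 0.218) for intermittent hypoxia after sham, with a 95% interval for the latter from -2.21 to -0.33. Without Sham_Nx 3 the change after orchiectomy passed (adjusted p = 0.049). Vnn1, a pantetheinase and PPAR-alpha target, was 149.9 to 235 CPM in Sham_Nx and 53.5 to 202 in ORX_IH and did not pass in any contrast.

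Acsl1 (ENSMUSG00000018796), the main long-chain acyl-CoA synthetase of liver, had the lowest p of the 36 after orchiectomy in normoxia and averaged over exposures. Sham_Nx livers had 2928, 1931, 2696 and 2324 CPM and Sham_IH livers 1639.9, 1629, 1876, 1540.2 and 1650.2. ORX_Nx livers had 1384, 1828, 1619.8, 1296 and 887 and ORX_IH livers 1097, 1221, 1433, 1418 and 1455. Every Sham_Nx liver lay above every liver of the other 3 groups, and every Sham_IH liver lay above every ORX_IH liver. The change after orchiectomy was -0.82 ± 0.16 (adjusted p = 0.00418) in normoxia, -0.33 ± 0.16 (adjusted p = 0.279) under intermittent hypoxia and -0.57 ± 0.11 (adjusted p = 0.0019) averaged. For intermittent hypoxia it was -0.57 ± 0.16 (adjusted p = 0.134) after sham and -0.08 ± 0.16 (adjusted p = 0.836) after orchiectomy.

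The other genes of binding and uptake did not pass in any contrast. Fabp1 averaged 2991 ± 582 CPM (SD, n = 4) in Sham_Nx, 2318 ± 421 in Sham_IH, 2632 ± 788 in ORX_Nx and 2254 ± 846 in ORX_IH. Its 95% interval for intermittent hypoxia averaged over operations ran from -0.66 to 0.07. Slc27a2 was 1573 to 1947 CPM in Sham_Nx and 1319 to 1730.1 in ORX_IH, and its interval for the same contrast was narrower, -0.21 to 0.15.

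**Figure D4:**
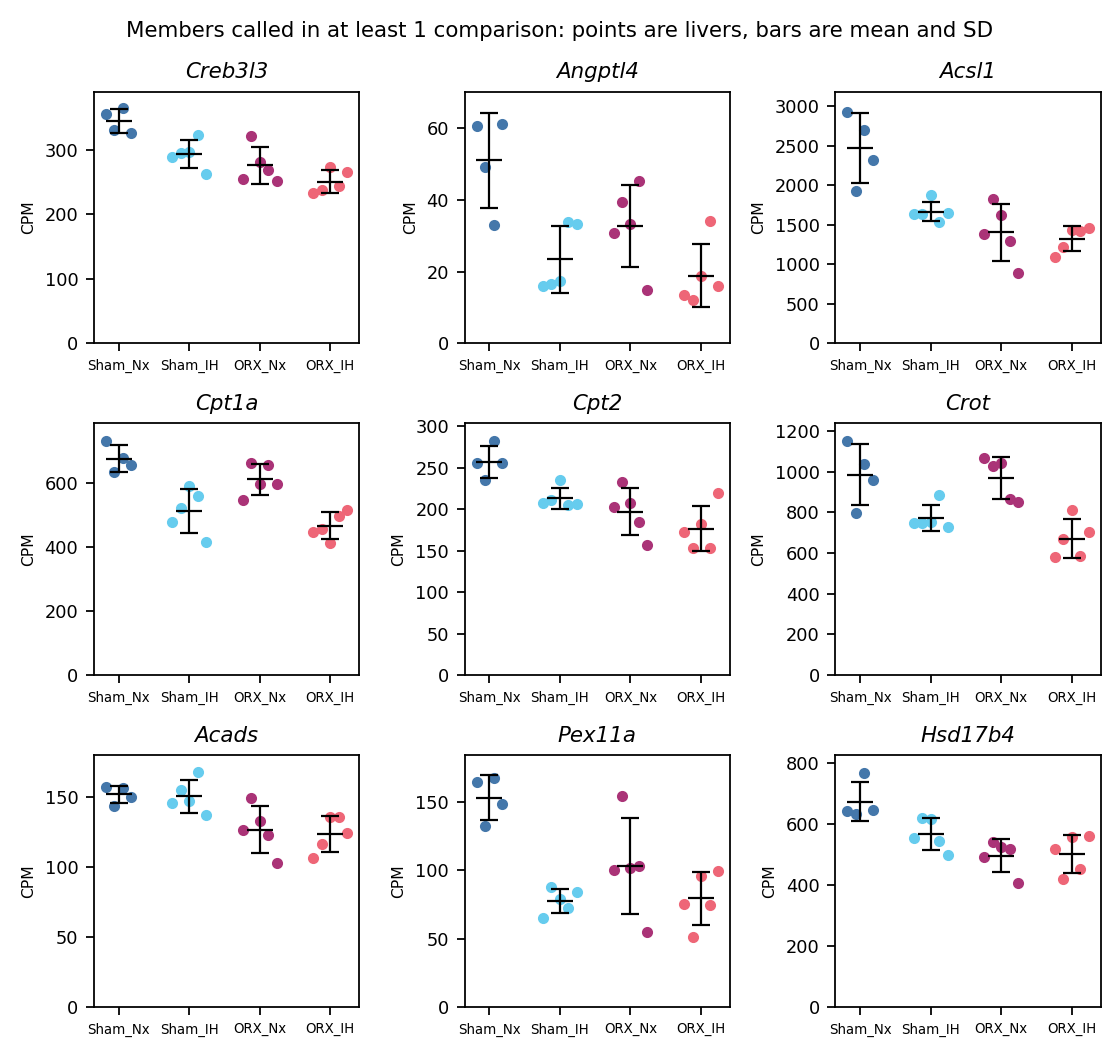
Each panel is 1 of the 9 genes called in at least 1 contrast, with CPM from 0 on the vertical axis and the 4 groups on the horizontal axis. Points are livers and bars the mean and SD (n = 4 for Sham_Nx, n = 5 for the others). Acsl1 and Hsd17b4 are lower in ORX_Nx than in Sham_Nx without overlap, and Cpt1a and Crot are lower in ORX_IH than in ORX_Nx without overlap.

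In the carnitine shuttle Cpt1a and Crot passed with intermittent hypoxia and Cpt2 with orchiectomy. Cpt1a (ENSMUSG00000024900), which makes acylcarnitine on the outer mitochondrial membrane and is the main control point of import, fell in intermittent hypoxia. Sham_Nx livers had 732, 634, 679 and 655 CPM against 477, 523, 591, 558 and 416 in Sham_IH. ORX_Nx livers had 546, 661, 597, 655 and 597 against 448, 456, 412, 498 and 517 in ORX_IH. Neither pair of groups overlapped. The change was -0.40 ± 0.10 (adjusted p = 0.0765) after sham, -0.39 ± 0.09 (adjusted p = 0.0659) after orchiectomy and -0.39 ± 0.07 (adjusted p = 0.00439) averaged, and that for orchiectomy averaged over exposures was -0.14 ± 0.07 (adjusted p = 0.138).

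Crot (ENSMUSG00000003623), the peroxisomal carnitine octanoyltransferase, fell in intermittent hypoxia as well. It was 1149, 796, 1039 and 959 CPM in Sham_Nx and 749.5, 748, 752, 884 and 727 in Sham_IH. After orchiectomy it was 1067, 1026, 1040.3, 863 and 853 in ORX_Nx and 583, 670.3, 813, 585 and 702 in ORX_IH. ORX_IH lay below ORX_Nx without overlap, while Sham_IH 4 overlapped Sham_Nx 3. The change was -0.53 ± 0.11 (adjusted p = 0.0506) after orchiectomy, -0.35 ± 0.12 (adjusted p = 0.183) after sham and -0.44 ± 0.08 (adjusted p = 0.0067) averaged.

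Cpt2 (ENSMUSG00000028607), which returns the acyl group to CoA inside the mitochondrion, fell after orchiectomy. Sham_Nx livers had 256, 235, 282 and 256 CPM and Sham_IH livers 208, 211, 235, 205 and 206. ORX_Nx livers had 203, 232, 208, 185 and 157 and ORX_IH livers 173, 153.4, 182, 153.5 and 219. The lowest Sham_Nx liver lay above all ORX_Nx livers by a small gap, and ORX_IH 5 alone reached into the range of Sham_IH. The change was -0.39 ± 0.11 (adjusted p = 0.0252) in normoxia and -0.33 ± 0.07 (adjusted p = 0.00489) averaged. In normoxia the call was lost under 9 of the 31 alternatives, with an adjusted p of 0.0531 without Sham_Nx 2, 0.0888 without Sham_Nx 4, 0.0544 without Sham_Nx 5 and 0.0511 without ORX_Nx 4. Without the 4 muscle-marker livers it was 0.0887, and without the 3 pancreas-marker livers 0.0755.

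Slc25a20, the carnitine-acylcarnitine carrier of the inner membrane, and Crat, the short-chain carnitine acetyltransferase, did not pass. In the comparison of Sham_IH with Sham_Nx the livers did not overlap for either. Slc25a20 was 125 to 147 against 157 to 171 CPM, a fold change of -0.26 ± 0.11 (adjusted p = 0.291). Crat was 103.2 to 146.6 against 147.2 to 183.5 CPM, a fold change of -0.44 ± 0.14 (adjusted p = 0.158). All 5 genes of the shuttle had an unadjusted p under 0.05 in that contrast (13.1% of all genes), and 2 in ORX_IH against ORX_Nx (17.1% of all genes).

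Among the mitochondrial acyl-CoA dehydrogenases, which open each round of oxidation by chain length, the short-chain enzyme Acads (ENSMUSG00000029545) was the only one of 4 to pass, after orchiectomy averaged over exposures. Sham_Nx livers had 157, 143.4, 156 and 150.0 CPM and Sham_IH livers 145, 155.01, 147, 168 and 137. ORX_Nx livers had 126, 148.99, 132, 122.3 and 102 and ORX_IH livers 105.97, 116, 135.8, 135.5 and 124. Sham_IH lay above ORX_IH by a narrow gap without overlap, and ORX_Nx 2 overlapped Sham_Nx. The change was -0.26 ± 0.09 (adjusted p = 0.0656) in normoxia, -0.28 ± 0.09 (adjusted p = 0.0929) under intermittent hypoxia and -0.27 ± 0.06 (adjusted p = 0.0061) averaged, while intermittent hypoxia averaged over operations gave -0.02 ± 0.06 (adjusted p = 0.881).

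The long-chain enzymes Acadvl and Acadl did not pass in any contrast. Acadvl averaged 437 ± 26.2 CPM in Sham_Nx, 439 ± 26.9 in Sham_IH, 423 ± 48.3 in ORX_Nx and 411 ± 43.2 in ORX_IH, with 95% intervals from -0.20 to 0.06 for orchiectomy and -0.15 to 0.11 for intermittent hypoxia, both averaged. For Acadl these intervals were -0.10 to 0.15 and -0.14 to 0.12. The medium-chain enzyme Acadm was lower in Sham_IH than in Sham_Nx without overlap, at 404 to 511 against 528 to 627 CPM, and its fold change was -0.28 ± 0.14 (adjusted p = 0.431).

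The trifunctional protein subunits Hadha and Hadhb, the short-chain dehydrogenase Hadh and the thiolase Acaa2, which finish each round, did not pass in any contrast. The closest was Hadha for orchiectomy averaged over exposures at -0.17 ± 0.06 (adjusted p = 0.0552), with Hadhb at -0.16 ± 0.07 (adjusted p = 0.104). Hadh was one of 6 genes above 0 there, at 0.12 ± 0.09, and in ORX_Nx it ran from 207 to 415 CPM. The 95% interval for Acaa2 ran from -0.25 to 0.08 for orchiectomy and from -0.22 to 0.11 for intermittent hypoxia.

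None of the 5 auxiliary enzymes of unsaturated fatty acids (Eci1, Eci2, Decr1, Decr2 and Ech1), which move or reduce double bonds, passed in any contrast. Their fold changes lay between -0.11 and 0.01 for averaged orchiectomy and between -0.18 and -0.06 for averaged intermittent hypoxia. Etfa and Etfb, the subunits of the flavoprotein that takes electrons from the dehydrogenases, and Etfdh, which hands them to ubiquinone, did not pass in any contrast. Their averaged fold changes were 0.02, 0.01 and -0.06 for orchiectomy and 0.02, 0.03 and -0.03 for intermittent hypoxia. The 95% interval of Etfa for intermittent hypoxia ran from -0.10 to 0.14.

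In peroxisomes, Pex11a (ENSMUSG00000030545), a membrane protein of peroxisome division and a PPAR-alpha target, fell in intermittent hypoxia. Sham_Nx livers had 165, 132, 168 and 148 CPM against 65.4, 87.7, 78.8, 72.5 and 83.8 in Sham_IH. ORX_Nx livers had 100.2, 154.5, 101, 103 and 55.1 against 75.7, 51.4, 96.0, 74.5 and 99.3 in ORX_IH. The sham groups did not overlap, and the orchiectomized groups overlapped through ORX_Nx 5. The change was -0.98 ± 0.21 (adjusted p = 0.0524) after sham, -0.38 ± 0.20 (adjusted p = 0.349) after orchiectomy and -0.68 ± 0.15 (adjusted p = 0.016) averaged. The averaged call was also lost without the 3 pancreas-marker livers (adjusted p = 0.069). The difference between the 2 changes, 0.60 ± 0.29 (adjusted p = 0.781), did not pass.

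Hsd17b4 (ENSMUSG00000024507), the peroxisomal D-bifunctional enzyme of branched and very long chains, fell after orchiectomy. It was 642, 635, 769 and 646 CPM in Sham_Nx and 553, 621, 617, 544 and 497 in Sham_IH. After orchiectomy it was 491, 542, 524, 518 and 405 in ORX_Nx and 518, 420.3, 556, 454 and 560.3 in ORX_IH. Sham_Nx lay above ORX_Nx and above Sham_IH without overlap, and the groups under intermittent hypoxia overlapped. The change was -0.44 ± 0.10 (adjusted p = 0.011) in normoxia, -0.17 ± 0.10 (adjusted p = 0.39) under intermittent hypoxia and -0.31 ± 0.07 (adjusted p = 0.00624) averaged. In normoxia the call was lost without Sham_Nx 4, the highest liver (adjusted p = 0.051).

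The remaining peroxisomal genes did not pass. Ehhadh, the L-bifunctional enzyme, ran over 1765 to 3896 CPM in Sham_Nx and 930.5 to 2055 in Sham_IH, with overlap, and its fold change was -0.89 ± 0.34 (adjusted p = 0.252). Abcd3, the peroxisomal importer of long-chain acyl-CoA, was 503 to 588 in Sham_IH against 658 to 714 in Sham_Nx without overlap, at -0.33 ± 0.13 (adjusted p = 0.265). Acaa1b was 879 to 1341 against 1583 to 2027 CPM, also without overlap, at -0.63 ± 0.26 (adjusted p = 0.285), while its near-copy Acaa1a gave -0.04 ± 0.10 (adjusted p = 0.913). Reads of such a pair can be divided between the genes by the quantification, so the split between them is uncertain.

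Bdh1 (ENSMUSG00000046598), which converts acetoacetate and beta-hydroxybutyrate into each other, was the only gene of ketone body metabolism in the set. Sham_Nx livers had 321, 253, 289 and 259.7 CPM and Sham_IH livers 239.6, 244, 229.5, 286 and 226. ORX_Nx livers had 343, 347, 301, 286 and 168 and ORX_IH livers 186, 179, 289.8, 179 and 225. All groups overlapped, with ORX_Nx 5 the lowest of all and ORX_Nx 1 and 2 the highest. Its fold change was -0.45 ± 0.17 (adjusted p = 0.169) for intermittent hypoxia after orchiectomy, and without ORX_Nx 5 it was -0.59 (adjusted p = 0.0413).

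The authors' deposited table holds 1 q-value per gene for any difference among the groups. It was under 0.05 for 5 of the 36 genes, Cpt1a (0.0123), Creb3l3 (0.0137), Crot (0.0229), Acsl1 (0.0239) and Cpt2 (0.0467), and for 1450 of the 35991 genes that have one (4.03%).

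Further genes of the pathway come from lists written with earlier results of these data in view. In the list of other fatty acid oxidation and ketone genes, 42 of 43 were tested. After orchiectomy in normoxia 6 rose and 10 fell, under intermittent hypoxia 2 rose and 4 fell, and averaged 6 rose and 12 fell, with a median of -0.07 in the last against 0.00 over all genes. Among all genes 14.3%, 2.88% and 22% were called in these contrasts in turn, and 6.46%, 1.57% and 10.1% were called lower. Of the 18 averaged calls those of Phyh, Scp2, Abcd2, Nudt7, Acox2 and Hsd17b10 held under all 30 alternatives, and 7 were lost without the 4 muscle-marker livers. Of the 16 in normoxia 8 were lost without these livers, and of the 6 under intermittent hypoxia 2. Without the 3 pancreas-marker livers the numbers lost were 3 of the 18, 3 of the 16 and 2 of the 6.

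Phyh, which starts the alpha-oxidation of phytanic acid in peroxisomes, had 1524 to 1634 CPM in Sham_Nx and 1677 to 2044 in Sham_IH against 898 to 1129.7 in ORX_Nx and 1029 to 1226 in ORX_IH. No orchiectomized liver reached the lowest sham liver. Its change was -0.65 ± 0.09 (adjusted p = 0.000113) in normoxia and -0.70 ± 0.08 (adjusted p = 5.43e-05) under intermittent hypoxia. Scp2, a peroxisomal thiolase and sterol carrier, was 3717 to 4429 and 3791 to 4786 in the sham groups against 2229 to 2808 and 2426 to 2938 after orchiectomy, again without overlap, at -0.70 ± 0.10 (adjusted p = 0.000194) and -0.60 ± 0.09 (adjusted p = 0.000898). Abcd2, a peroxisomal importer of very long chain acyl-CoA, rose, from 21.1 to 33.2 and 27.8 to 40.0 CPM to 45.0 to 85.8 and 61.8 to 90.3, at 1.33 ± 0.18 (adjusted p = 0.000101) and 1.11 ± 0.16 (adjusted p = 0.000506). Eci3, an isomerase related to Eci2, was at 0 to 0.0808 CPM in Sham_Nx and 0 to 0.055 in Sham_IH and at 0.827 to 5.04 in ORX_Nx and 0.427 to 1.31 in ORX_IH. It passed the filter on low counts only through the groups where it is high, so its place among the genes that rose is a description. Reads of Eci2 and Eci3 may be shared in the quantification, and Eci3 stayed below 6 CPM in every liver.

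Intermittent hypoxia after sham, where 0.303% of all genes were called and 0.204% were called lower, was followed by a fall of 3 of the 42 genes and a rise of none. These were Slc22a5, the plasma membrane carnitine transporter, at -0.83 ± 0.17 (adjusted p = 0.0388), Pex13, of the peroxisomal import machinery, at -0.29 ± 0.06 (adjusted p = 0.0341), and Slc27a4, a fatty acid transport protein, at -0.30 ± 0.06 (adjusted p = 0.0386). Averaged over operations 3 fell and 1, Acsl3, rose, where 4.53% of all genes were called and 2.57% were called lower. All 4 of these averaged calls were lost without the 4 muscle-marker livers, as were the 3 after sham. Leaving out the 3 pancreas-marker livers lost 3 of the 4 averaged calls and all 3 after sham. Those 3 held under 15 to 18 of the 31 alternatives.

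**Figure D5:**
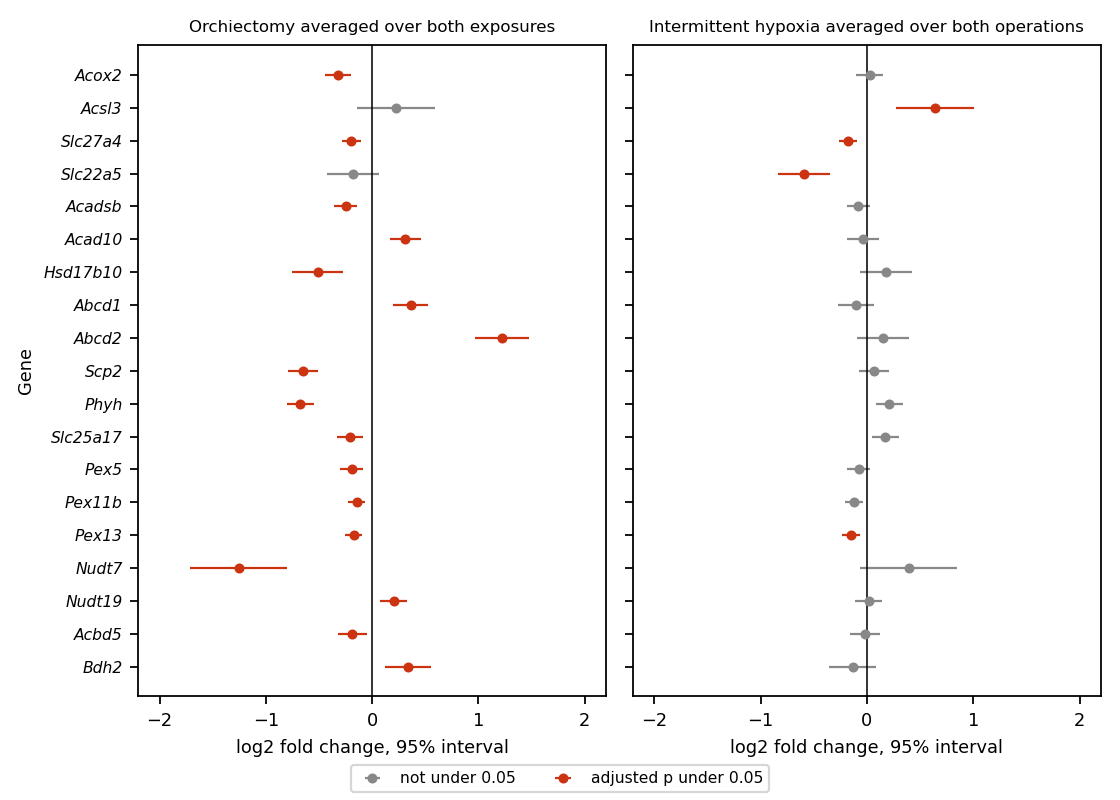
Points are log2 fold changes with 95% intervals of those genes of the list of other fatty acid oxidation and ketone genes that passed in either contrast shown, for orchiectomy averaged over both exposures on the left and intermittent hypoxia averaged over both operations on the right, and red marks an adjusted p under 0.05. Eci3 is left out because its sham values lie at or near 0. Phyh and Scp2 lie below 0 and Abcd2 above 0 on the left, and on the right Acsl3 lies above 0 and Slc22a5 below 0.

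Of 19 regulators of fatty acid oxidation, 4 rose and 2 fell with orchiectomy averaged over exposures (22% of all genes called), and 1 rose and 1 fell with averaged intermittent hypoxia (4.53% of all genes called). Of the former 6 calls 4 were lost without the 4 muscle-marker livers, and of the latter 2, that of Esrra, a receptor of mitochondrial genes. Leaving out the 3 pancreas-marker livers lost 3 of the former 6 and 1 of the latter 2. Ppargc1a, the PGC-1alpha coactivator of PPAR-alpha, was 3.65 to 7.49 CPM in Sham_Nx against 7.5 to 12.1 in ORX_Nx, a rise of 0.82 ± 0.17 (adjusted p = 0.00544) that held under all 31 alternatives. Pparg, a receptor of the same family that favours fat storage, was 8.07 to 9.77 in Sham_Nx, 4.92 to 6.12 in Sham_IH, 8.71 to 12.5 in ORX_Nx and 6.29 to 9.02 in ORX_IH. It fell with averaged intermittent hypoxia by 0.63 on the log2 scale (adjusted p = 0.00134) and rose with averaged orchiectomy at 0.35 ± 0.08 (adjusted p = 0.0049), and both calls held under all 30 alternatives. Its falls after sham (adjusted p = 0.0199) and after orchiectomy (adjusted p = 0.0489) were lost without the 4 muscle-marker livers (adjusted p = 0.196 and 0.268). Both were also lost without the 3 pancreas-marker livers.

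Of 20 tested other PPAR-alpha targets, 1 rose and 4 fell with orchiectomy in normoxia (14.3% of all genes called). Under intermittent hypoxia 2 rose and none fell (2.88% of all genes called), and all 7 calls were lost without the 4 muscle-marker livers. Leaving out the 3 pancreas-marker livers lost 3 of the 5 calls in normoxia and both calls under intermittent hypoxia. Averaged over exposures 4 rose and 4 fell (22% of all genes called), and 2 of these 8 calls held under all 30 alternatives, the fall of Cyp4a31, a fatty acid hydroxylase, at -0.74 ± 0.19 (adjusted p = 0.00974) and the rise of Acot3, an acyl-CoA thioesterase, at 1.19 ± 0.23 (adjusted p = 0.00195). With intermittent hypoxia after sham 2 fell (0.303% of all genes called): Acot2, a mitochondrial acyl-CoA thioesterase, at -1.55 ± 0.27 (adjusted p = 0.0199), and Plin2, a coat protein of lipid droplets, at -1.10 ± 0.21 (adjusted p = 0.0327). Their livers did not overlap, with 34.2 to 67.9 against 13.3 to 19.2 CPM for Acot2 and 548 to 1106 against 314 to 447 for Plin2, but without the 4 muscle-marker livers the adjusted p was 0.175 for Acot2 and 0.196 for Plin2. Both calls were also lost without the 3 pancreas-marker livers. After orchiectomy none of the 20 passed with intermittent hypoxia. Averaged over operations 5 fell and none rose (4.53% of all genes called), and each of these 5 calls was lost without the 4 muscle-marker livers. Leaving out the 3 pancreas-marker livers lost 2 of these 5. Of the 8 calls averaged over exposures, 6 were lost without the muscle-marker livers and 4 without the pancreas-marker livers. The median of this list was -0.54 with intermittent hypoxia after sham and -0.01 after orchiectomy, and the interaction called none of the 20, of which 6 had an unadjusted p under 0.05 (6.34% of all genes). Acot and Cyp4a genes lie in families of close copies, whose reads can be divided between them.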

How the data were processed

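Messenger RNA of 19 mouse livers was measured by poly(A)-selected, directional RNA sequencing, per the labels' protocols. The submitters' processing notes name build GRCm39 and the tools kallisto 0.46.1, fastp 0.23.2, bcl2fastq 2.20, MultiQC 1.12 and FastQC 0.11.9. The authors deposited estimated counts per gene (27.5% of values not whole). The authors also deposited log2 expression values, normalized in a way not given in the sources used here (median distance 0.0678 from log2 RPKM computed here). Beside them each gene has a deposited score (an F-statistic over the groups), p-value and q-value. Columns were tied to mice by library number and group.

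Counts were rounded, filtered with filterByExpr (minimum count 10), scaled by TMM and fitted with edgeR 4.0.16 in R 4.3.3 over all 4 groups, with Benjamini-Hochberg adjustment over 16164 genes. Standard errors were taken from the fold change and its F. Alternatives used DESeq2 1.42.0, limma 3.58.1, other scalings, filters and samples. The fit was tested on simulated data. No 2 libraries of a group agreed within sampling noise (chi-square per degree of freedom at least 19.3), and nothing says how the mice were housed, so p-values measure the spread between these mice.

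The genes and lists were chosen with earlier results of these data known. Named in full were genes called in any of 7 contrasts, Ppara, Cpt1a, Fgf21, Angptl4, Creb3l3 and Bdh1, and the 3 lowest p of each contrast; of other lists, called genes among the 5 lowest p of a list and contrast, with some genes of these lists not reported here.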

Additional observations from a re-analysis of the deposited data

Results flagged for a closer look

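For 7 pairs of a gene and a group, among 36 genes and 4 groups, 1 liver lay far from the rest of its group by Dixon's criterion at the 95% level, and chance gives about 1 in 20. Cpt2 was 235 CPM in Sham_IH 3, where the others lay between 205 and 211. Crot was 884 CPM in Sham_IH 4 (others 727 to 752), Ech1 was 453 CPM in Sham_Nx 4 (others 375 to 387) and Etfb was 284 CPM in ORX_IH 3 (others 238 to 245). Ehhadh was 2240 CPM in ORX_Nx 5 (others 1750 to 1880), a liver that was low in most of the other genes. Hsd17b4 was 769 CPM in Sham_Nx 4 (others 635 to 646), the liver without which its call after orchiectomy in normoxia was lost. Acaa1a was 198 CPM in Sham_IH 5, below the others at 235 to 250, and that liver had the most pancreatic marker RNA.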

How the results depend on the processing

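Of the values for single genes of the set under all alternatives, 7588 kept their direction and side of the threshold or were uncalled in both, 89 gained a call, 27 lost one and 0 reversed. The number called after orchiectomy in normoxia, 4, became 2 with no scaling factors, on the 2 compared groups alone and without the 4 muscle-marker livers. Under intermittent hypoxia, 0 became 1 with DESeq2 and with library numbers 1 to 16 only. The fit on library numbers 1 to 16 leaves out mouse 5 of each group, ORX_Nx 5 among them. For intermittent hypoxia after sham, 0 became 1 with DESeq2's size factors in edgeR and with no filter, 2 with no scaling factors and with a minimum count of 50, 4 with DESeq2 and 8 on the compared groups alone. After orchiectomy, 0 became 1 with a minimum count of 50 and 2 with DESeq2. Averaged over operations, 4 became 11 with DESeq2, 8 with library numbers 1 to 16, 0 without the muscle-marker livers and 2 without the 3 pancreas-marker livers. Leaving out 1 library each in turn gave 2 to 6 for orchiectomy in normoxia, 0 to 1 under intermittent hypoxia, 0 to 3 for intermittent hypoxia after sham, 0 to 2 after orchiectomy, 0 for the interaction, 5 to 7 for averaged orchiectomy and 3 to 14 for averaged intermittent hypoxia. The share of all genes called is given above for some of the fits without ORX_Nx 5, and not for the fits that leave out another single library. Where no value over all genes is given, a change in these counts cannot be told apart from a change over all genes. The cause of these changes in the counts was not tested. In fits that leave livers out, having fewer livers cannot be told apart from lacking those particular livers. Livers of different groups with the same mouse number had a median correlation of 0.0037, against 0.0052 for other pairs. Same-numbered pairs ran from -0.197 to 0.395, and 5 of 27 lay above 0.1. Of the 19 livers, 8 correlated best with a liver of their own number. Whether mouse numbers pair the livers is not settled by these values. With the mouse number as a replicate block 3 genes were called after orchiectomy in normoxia (Cpt2 lost, adjusted p = 0.0573), and 0, 0, 0, 0, 5 and 4 in the other contrasts in the order above. Over all genes, the 2319 calls of orchiectomy in normoxia became 918 on the compared groups, 1098 with library numbers 1 to 16, 422 without the muscle-marker livers and 1101 without the pancreas-marker livers. The 465 under intermittent hypoxia became 971 with no scaling factors, 867 with DESeq2, 107 without the muscle-marker livers and 158 without the pancreas-marker livers, and the 3549 averaged became 1306 and 2063 without these sets. The 49 calls of intermittent hypoxia after sham became 117 with a minimum count of 50, 413 with DESeq2, 483 on the compared groups, 9 with library numbers 1 to 16, and 2 and 0 without the 2 sets. The 12 after orchiectomy became 63 with a minimum count of 50, 712 with DESeq2, 1 on the compared groups and 0 with no filter, with limma-trend, with the block and without either set, and the 733 averaged became 472 with no filter, 1444 with DESeq2, 380 with library numbers 1 to 16, and 8 and 157 without the 2 sets. The lowest count of any of the 36 genes in a library was 27, for Fgf21, so relative counting error was largest for that gene.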

Other observations

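Among genes of feeding and fasting no call held without the 4 muscle-marker livers except that of Acaca, an enzyme of fatty acid synthesis, with averaged orchiectomy, at 0.56 ± 0.14 (adjusted p = 0.0102) on the log2 scale. Of 13 such genes, 4 rose and none fell with orchiectomy in normoxia (14.3% of all genes called): Srebf1, the transcription factor of lipogenesis, at 1.61 ± 0.43 (adjusted p = 0.0193), Acaca at 0.72 ± 0.21 (adjusted p = 0.0288), Pnpla3, a lipid droplet enzyme, at 1.92 ± 0.56 (adjusted p = 0.0302), and Acly, which makes cytosolic acetyl-CoA, at 0.60 ± 0.18 (adjusted p = 0.033). Pnpla3 was only at 0.0485 to 0.26 CPM in Sham_Nx and 0.187 to 0.955 in ORX_Nx. It passed the filter on low counts through groups where it is higher than in Sham_Nx, so its rise is a description. With averaged intermittent hypoxia 2 of the 13 rose and 2 fell (4.53% of all genes called). Srebf1 was among those that rose, at 1.08 ± 0.29 (adjusted p = 0.0391). Those that fell were Scd1, the stearoyl-CoA desaturase, at -1.57 ± 0.35 (adjusted p = 0.0182) and Igfbp1, a fasting-induced binding protein, at -1.55 ± 0.37 (adjusted p = 0.0252). Leaving out the 3 pancreas-marker livers lost all 4 of these calls. It also lost 2 of the 4 calls of orchiectomy in normoxia and 1 of the 4 of averaged orchiectomy. Of 15 tested circadian clock genes, 2 fell with averaged orchiectomy (22% of all genes called, 10.1% lower), Clock at -0.19 ± 0.06 (adjusted p = 0.0297) and Bhlhe41 at -0.80 ± 0.25 (adjusted p = 0.0266), and none passed with intermittent hypoxia. Both of these calls were lost without the 4 muscle-marker livers, and 1 of them without the 3 pancreas-marker livers.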
